A study of Mus musculus with 71 samples.

Results

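Hearts of mouse embryos that lack miR-17, miR-20a and miR-18a of the miR-17~92 cluster (the Δ17,18 allele) were compared with wild-type hearts. The comparison takes the 3 Δ17,18 and the 3 wild-type heart libraries by the names of their columns in the deposited count table, 6 of the 71 libraries of the series. The whole series holds 8 genotypes at the cluster, each read in tail bud, heart and remaining embryo. All embryos were C57BL/6 at embryonic day 9.5, staged to between 20 and 22 somites, and the tissues were dissected by hand under a microscope. The Δ17 hearts used below lack miR-17 and miR-20a, and the Δ18 hearts lack miR-18a. Both keep the other members of the cluster, as the Δ17,18 hearts keep miR-19a, miR-19b and miR-92a. The series text describes biological triplicates. Whether the mutant embryos were homozygous, and which embryos carry the same replicate number in different tissues, is not given in the sources used here.

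A microRNA is a short RNA that guides Argonaute proteins to messenger RNAs, mostly through pairing of its seed, bases 2 to 8, with the 3′ untranslated region (UTR), and so lowers the level or the translation of the messenger. The miR-17~92 cluster is a single primary transcript, made from the gene Mir17hg, that is cut into 6 hairpins of 4 seed families. It is known as a regulator of cell growth and survival, and mice without it die around birth with heart and lung defects. In the embryonic heart it has been tied to the balance between proliferation and differentiation of cardiac progenitors.

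The mature strands below show what the allele removes and what it leaves, with the seed in capitals. They are RefSeq sequences, all from the plus strand of chromosome 14 in GRCm38.p6. The strands lost in Δ17,18 come first.
miR-17-5p: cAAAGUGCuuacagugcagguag
miR-20a-5p: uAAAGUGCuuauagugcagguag
miR-18a-5p: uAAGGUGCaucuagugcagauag
miR-19a-3p: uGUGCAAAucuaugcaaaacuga
miR-19b-3p: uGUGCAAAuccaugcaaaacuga
miR-92a-3p: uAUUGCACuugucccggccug
The removed strands lie at chr14:115043684-115043706 (miR-17-5p), chr14:115044183-115044205 (miR-20a-5p) and chr14:115043867-115043889 (miR-18a-5p). miR-17 and miR-20a share a seed, AAAGUGC. The seed of miR-18a, AAGGUGC, differs from it at a single base. Genes for miRNAs with the same seeds (miR-106b and miR-93 on chromosome 5, miR-106a, miR-20b and miR-18b on chromosome X) lie outside the cluster and are not touched by the allele.

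The 6 libraries held between 15636947 and 20676010 counts, and the 24 heart libraries between 13532012 and 27477273. Levels are given as CPM, a gene's counts relative to the library's total after edgeR's TMM scaling. One of the 6, Δ17,18 replicate 2, had the fewest counts and stood apart. Ttn, the giant spring protein of the sarcomere, was at 71405 CPM there and between 3960 and 10049 in the other 23 heart libraries. Lars2, Gm15564 and Myh7 were also higher there than in any of the others, and its 10 most abundant genes took 15.8% of its counts in tested genes, against 5.08% to 8.50% in the rest. Where the mean log2 CPM reached 2, genes with transcripts over 8000 bases had a median log2 CPM 0.14 above that of the other 23 libraries in replicate 2, against −0.03 and 0.05 in replicates 1 and 3, and those of up to 2000 bases stood at −0.08. Skews by length were also present in other genotypes. The 3 full-knockout hearts stood at 0.08 to 0.09 in the longest class, and replicate 3 of the Δ17,18,92 hearts at −0.13 there and 0.10 in the shortest. The counts of calls, the seed-match and list values and several single genes below are also given without Δ17,18 replicate 2. Its part in the results was not tested.

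**Figure D1:**
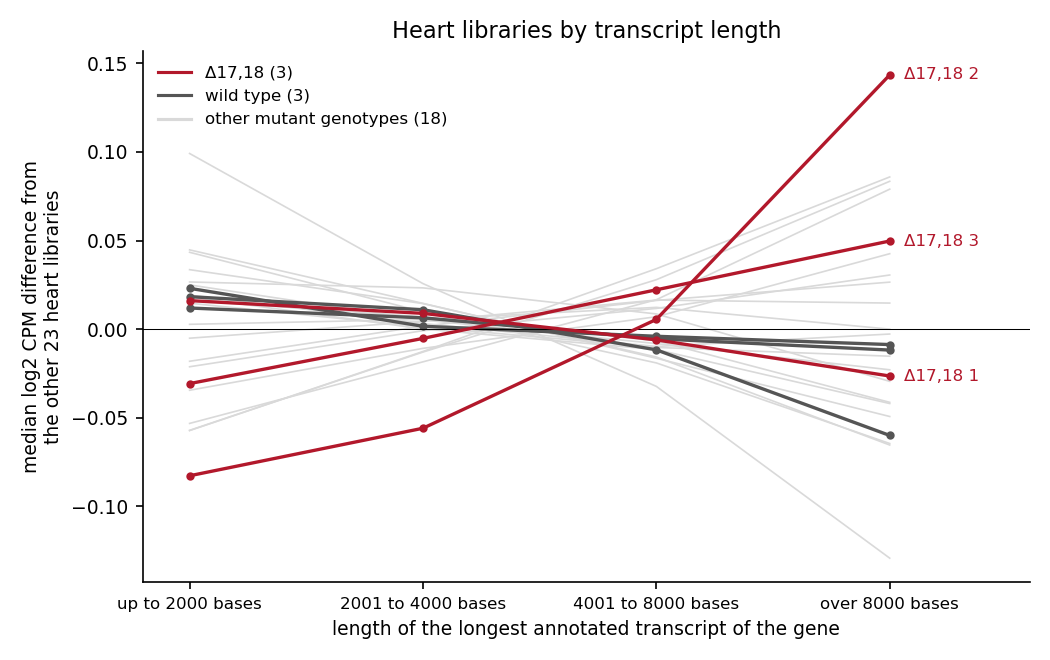
Median difference in log2 CPM of each heart library from the other 23 (vertical axis) for 4 classes of transcript length in bases (horizontal axis); red lines are the 3 Δ17,18 libraries, dark grey the 3 wild-type ones, pale grey the 18 of the other 6 genotypes. Δ17,18 replicate 2 goes from −0.08 in the shortest class to 0.14 in the longest.

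Heart muscle markers were high in all 6 libraries. Myh6, the alpha myosin heavy chain, lay between 6303 and 7817 CPM, Actc1, cardiac actin, between 9844 and 11703, and Nkx2-5, a cardiac transcription factor, between 141 and 180, where wild-type tail buds had at most 0.171. Endothelial markers (Cdh5 at 200 to 256 CPM, and Npr3 of the endocardium at 149 to 215) and epicardial Wt1 (18.1 to 27.5) were present too. Other epicardial markers were low. Tcf21 was at 1.34 to 4.18 CPM, below the 8.03 to 9.47 of wild-type tail buds. Upk3b ran from 0.287 to 7.06 CPM, highest in Δ17,18 replicate 2, against 1.32 to 2.31 in those tail buds. Embryonic haemoglobin differed widely between libraries, with Hbb-y between 281 and 2476 CPM. In bulk tissue, fewer cells of a type and less RNA per cell cannot be told apart. Xist was high in wild-type replicate 2 and Δ17,18 replicates 1 and 3 (1272 to 1311 CPM) and between 4.83 and 16.7 in the others, so both groups mix the sexes, and none of the 5 sex-linked genes tested was called. Without Δ17,18 replicate 2 only high-Xist libraries are left in the mutant group, and the wild-type group stays mixed. The median log2 change of the 5 sex-linked genes then goes from −1.09 to −6.47. Values given without replicate 2 therefore cannot tell genotype from sex.

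Loss of miR-17, miR-20a and miR-18a went with small rises in many genes and with falls in few. Of 16750 genes tested, 187 (1.12%) passed an adjusted p of 0.05 in edgeR's quasi-likelihood test with Benjamini-Hochberg adjustment. They comprised 159 higher genes (0.949%) and 28 lower ones (0.167%). The median log2 change of the called genes was 0.39 among the raised and −0.29 among the lowered, and over all genes tested it was 0.00. In all 187 the 3 mutant libraries lay beyond the 3 wild-type ones, a separation that 17.4% of all genes tested showed (9.04% with the mutant higher, 8.35% lower). Without Δ17,18 replicate 2, 98 genes (0.578% of those tested) were called, 87 higher (0.513%) and 11 lower (0.0649%), and 81 and 9 of these were among the first set. All 187 kept their sign. The count moved with every library left out, to 339 without Δ17,18 replicate 1, 95 without replicate 3, and 64, 103 and 112 without wild-type replicates 1, 2 and 3. Of the 187, 48 were called in all 6 of these fits, 45 of them raised.

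**Figure D2:**
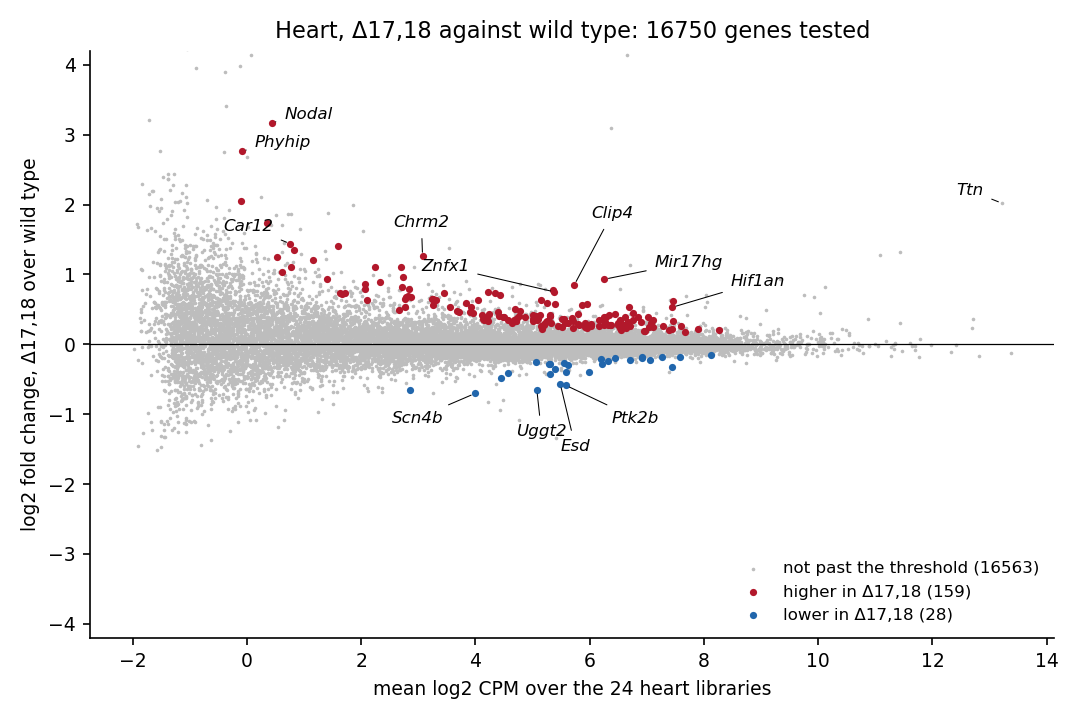
log2 fold change, Δ17,18 over wild-type heart (vertical axis), against mean log2 CPM over the 24 heart libraries (horizontal axis) for the genes tested; 159 higher genes are red, 28 lower ones blue, and 5 uncalled genes lie beyond the vertical axis. Most called genes lie within a log2 change of 1, and Ttn stands at 2.02 without passing the threshold.

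The host gene of the cluster was among the strongest changes. Mir17hg was at 38.1, 42.1 and 39.1 CPM in wild-type hearts and at 77.1, 75.7 and 74.6 in Δ17,18 hearts. All mutant libraries stood far above all wild-type ones. The log2 change was 0.93 ± 0.08 (SE; adjusted p = 2.13e-07, edgeR). In Δ17 hearts, set against the same wild-type libraries, it lay between 75.6 and 79.7 CPM, and in Δ18 hearts between 36.8 and 37.5, so the higher level was present in the genotypes without miR-17 and miR-20a. The separate entries for the 6 hairpins had 0 counts in all 6 libraries, where 3 counts correspond to 0.145 to 0.192 CPM. Such libraries do not measure mature miRNAs, and reads of Mir17hg outside the removed parts do not check the deletion.

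Genes with a match to the miR-17 seed made up a large share of the raised ones. The match searched is an 8mer, the complement of bases 2 to 8 followed by an A, which reads GCACTTTA for miR-17 and miR-20a and GCACCTTA for miR-18a, on the sense strand of the longest annotated 3′ UTR. The sites below are those of raised genes discussed next, with the 8mer in capitals and 20 bases before it, from GENCODE M21 on GRCm38.
Znfx1, miR-17: tgtaccctgcgctagagtaaGCACTTTA
Zfp651, miR-17: tttaatcatcaataaacgaaGCACTTTA
Zfp651, miR-18: aagcttctttgtcacactctGCACCTTA
Clip4, miR-17: tttgaaaataatcagaatgaGCACTTTA
Armc8, miR-17: agttgcattttttttcttaaGCACTTTA
Clock, miR-17: atcattttgaaaggtaataaGCACTTTA
Zfp367, miR-18: gatccttgggcataagctaaGCACCTTA
Zbtb4, miR-18: ccaactttgcctccaaaataGCACCTTA
The Znfx1 site lies at chr2:167036554-167036581 on the minus strand, and its UTR holds 2 such 8mers. The sites of Zfp651 lie at chr9:121769020-121769047 (miR-17) and chr9:121768845-121768872 (miR-18) on the plus strand. Those of Clip4 (chr17:71856729-71856756, plus), Armc8 (chr9:99478470-99478497, minus) and Clock (chr5:76212851-76212878, minus) follow. The miR-18 sites lie at chr13:64135231-64135258 (Zfp367, minus) and chr11:69780508-69780535 (Zbtb4, plus). A match describes these letters only and does not show binding.

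Znfx1, a zinc-finger protein with a helicase domain that binds RNA, had the smallest p of all genes. It was at 33.7, 28.9 and 31.1 CPM in wild-type and 48.3, 52.3 and 57.2 in Δ17,18 hearts, with no overlap. The log2 change was 0.75 ± 0.06 (adjusted p = 4.74e-08). Zfp651, a zinc-finger gene whose UTR holds an 8mer of both families, rose from 30.1, 26.7 and 27.7 CPM to 43.2, 44.3 and 44.0. The mutant libraries lay within 2 CPM of each other, and the log2 change was 0.64 ± 0.07 (adjusted p = 5.85e-06). Clip4, of the CAP-Gly linker family of microtubule-binding proteins, rose from 35.1, 36.2 and 41.0 CPM to 64.2, 74.0 and 63.9, a log2 change of 0.85 ± 0.09 (adjusted p = 8.58e-06). Its lowest mutant library was well above its highest wild-type one. Armc8, a subunit of the CTLH ubiquitin ligase complex, rose from 66.3, 61.5 and 65.5 CPM to 86.7, 82.9 and 84.0. Its change was small (0.39 ± 0.05) but tight across libraries, with an adjusted p of 6.19e-06.

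The other raised genes picked for a miR-17 8mer and a small p were St6galnac6, a sialyltransferase (log2 change 0.44), Polr3g, a subunit of RNA polymerase III (0.38), Clock, a transcription factor of the circadian clock (0.39), and Snx8, a sorting nexin of endosomes (0.41). All 8 of the genes so named stayed below a log2 change of 1.

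The raised genes with a miR-18 8mer included Zfp367 and Zbtb4. Zfp367, a zinc-finger transcription factor, rose from 30.2, 33.9 and 34.3 CPM to 47.0, 49.9 and 50.8, a log2 change of 0.59 ± 0.08 (adjusted p = 9.16e-05). The groups did not overlap. Zbtb4, a zinc-finger protein that binds methylated DNA and is a reported target of the cluster, went from 19.5, 19.4 and 19.3 CPM to 26.2, 25.3 and 24.7 (0.39 ± 0.08, adjusted p = 0.0074). Its wild-type libraries were nearly identical, and every mutant library lay above them.

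Of 620 tested genes with a miR-17 8mer, 62 (10%) were raised and 0 lowered by edgeR's test, and the median log2 change of the 620 was 0.12, against 0.00 over all genes. Of 255 with a miR-18 8mer, 14 (5.49%) were raised and 0 lowered, with a median of 0.08. For the families that the allele keeps, 22 of 866 genes with a miR-19 8mer (2.54%) and 6 of 386 with a miR-92 8mer (1.55%) were raised, both with a median of 0.02. Many UTRs hold matches of several families. Among genes with a miR-19 8mer and no match of miR-17 or miR-18, 3 of 538 (0.558%) were raised, and among 9008 genes with no match of any of the 4 families 35 (0.389%) were raised and 20 lowered.

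The miR-17 and miR-18 matches were then separated. With a miR-17 8mer and no miR-18 match, 52 of 516 genes (10.1%) rose, and the median log2 change was 0.12. With a miR-18 8mer and no miR-17 match, 5 of 180 (2.78%) rose, and the median was 0.06. The 24 genes with an 8mer of both had a median of 0.24, and 5 of them (20.8%) rose. That median fell to 0.12 without Δ17,18 replicate 2. The difference between these classes was not tested.

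Each mutant library showed the shift of genes with a miR-17 8mer. Their median log2 CPM lay 0.09, 0.14 and 0.12 above the wild-type mean in Δ17,18 replicates 1, 2 and 3, and the 3 wild-type libraries, each against the others, gave −0.02, 0.00 and 0.02. For the miR-18 8mer the mutant values were 0.04, 0.10 and 0.08, and the wild-type ones −0.03, 0.00 and 0.01. Without replicate 2 the medians of the fold changes were 0.10 and 0.06. The counts of raised genes moved more than the medians. With 1 of the 6 libraries left out, 27 (without wild-type replicate 1) to 69 (without Δ17,18 replicate 1) of the 620 genes were raised. These were 28.3% to 48.3% of all genes raised in the same fit. For the miR-18 8mer the counts ran from 6 to 18 of 255.

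**Figure D3:**
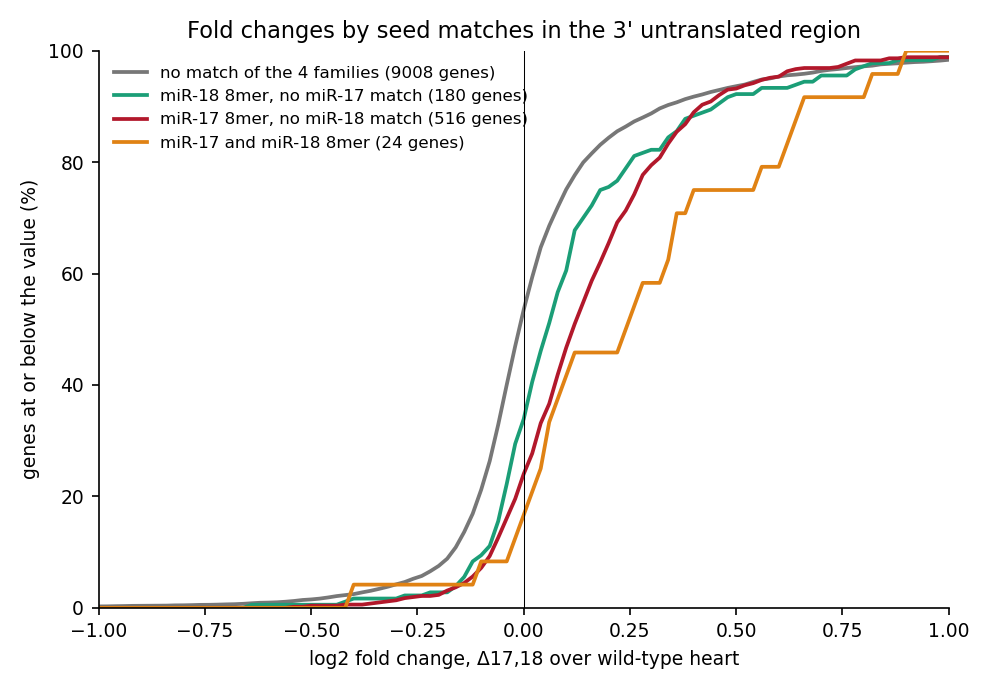
Cumulative share of genes (vertical axis, %) at or below each log2 fold change, Δ17,18 over wild-type heart (horizontal axis), for genes with no match of the 4 seed families (9008), with a miR-18 8mer only (180), with a miR-17 8mer only (516) and with both (24). The medians are −0.01, 0.06, 0.12 and 0.24, in that order from left to right.

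Seen from the raised genes, 153 of the 159 had an annotated 3′ UTR. Of these, 62 (40.5%) held a miR-17 8mer, against 4.47% of the 13866 tested genes with a UTR. Counting 7mers that pair with the whole seed as well, 92 (60.1%, against 14.9%) held a miR-17 match and 35 (22.9%, against 10.2%) a miR-18 match. A match of either family was present in 108 (70.6%, against 22.5%) and absent in 45. Without Δ17,18 replicate 2, 42 of 84 raised genes with a UTR (50%) held a miR-17 8mer and 63 (75%) a match of either family. None of the 27 lowered genes with a UTR held a miR-17 match, and 2 held a miR-18 match (1 and 2 of 11 without replicate 2). UTR length moved with this, with a median of 2289 bases in the raised, 1201 in the lowered and 1362 in all tested genes, and its part in the result was not tested.

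Transcript length also moved with the calls. Only genes with a mean log2 CPM of 2 or more and a known length were put in length classes. Of 731 genes over 8000 bases, 24 (3.28%) were raised and 0 lowered, with a median log2 change of 0.08. Of 2354 genes of up to 2000 bases 7 (0.297%) were raised and 8 (0.340%) lowered, with a median of −0.05. Without Δ17,18 replicate 2 these counts were 10 and 0, and 3 and 3. In the class over 2000 and up to 4000 bases, 0.95% were raised and 0.226% lowered with all libraries. In the class over 4000 and up to 8000 bases the shares were 1.75% and 0.232%. The difference between length classes was not tested.

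Among the raised genes with no 8mer of either family, 3 were chosen after their values were seen. Atm, the kinase that signals DNA breaks, had no shorter match either. Its annotated UTR is short, at 597 bases against a median of 2289 in the raised genes. It was at 79.6, 81.2 and 91.7 CPM in wild-type and 116, 130 and 121 in Δ17,18 hearts (log2 change 0.54 ± 0.06, adjusted p = 6.03e-06). Every mutant library was above every wild-type one. Hif1an, an oxygenase that modifies the hypoxia factor HIF-1α, held a 7mer of miR-17 and rose from 139, 148 and 142 CPM to 189, 206 and 223 (0.53 ± 0.06, adjusted p = 5.85e-06). Polq, the DNA polymerase theta of end joining, held a 7mer of both families and rose from 46.6, 50.0 and 50.8 CPM to 68.1, 73.2 and 75.7 (0.56 ± 0.08, adjusted p = 0.000123). In both genes the groups were clearly apart.

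The largest rises among genes of at least moderate level (mean log2 CPM of 2 or more) were in Chrm2, Mfap4, Col9a2, Ryr3, Mir17hg, Hrasls, Phactr3, Clip4, Dok5, Dtx3l, Kif1a, Vldlr, Znfx1, Scn7a and Dzip1, with log2 changes from 0.74 to 1.26. Chrm2, the muscarinic receptor through which the vagus slows the heart, was at 5.31, 6.23 and 5.51 CPM in wild-type and 12.0, 17.4 and 11.7 in Δ17,18 hearts. Replicate 2 was the highest, and the groups did not overlap. The log2 change was 1.26 ± 0.24 (adjusted p = 0.0104). Without replicate 2 it was 1.06 with an adjusted p of 0.0575, and the call was also lost without wild-type replicate 1 or 3 (up to 0.0736). Vldlr, a receptor for lipoproteins and reelin, rose from 28.8, 28.9 and 33.0 CPM to 45.3, 59.4 and 51.2 (0.78 ± 0.14, adjusted p = 0.00764, and 0.0643 without wild-type replicate 1). Mfap4, a microfibril protein (1.11), Col9a2, a chain of collagen IX (1.11), and Ryr3, a calcium release channel (0.97), were lower expressed, at means of 3.14 to 5.39 CPM in wild type. Of the 15, 4 were called in all 6 fits with a library left out, and 9 were called without Δ17,18 replicate 2, and all 15 kept their sign.

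Dzip1, a gene of primary cilium formation and of Hedgehog signalling, was one of those 4. It went from 14.9, 17.2 and 15.5 CPM to 26.6, 27.8 and 25.0. The groups were far apart, with a log2 change of 0.74 ± 0.11 (adjusted p = 0.000359). Its UTR held no miR-17 or miR-18 match.

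Of called genes 7 rose by more than Chrm2, all of them below the level set for naming, and 3 of these are given, chosen after their values were seen. Nodal, the TGF-β family ligand of left-right patterning, was at 0.191, 0.346 and 0.265 CPM in wild-type hearts and 2.31, 1.66 and 3.28 in Δ17,18 hearts. It was low in every library, and still the lowest mutant value was several times the highest wild-type one. The log2 change was 3.17 ± 0.54 (adjusted p = 0.00294, and 0.0037 without replicate 2). Phyhip, a gene named for its binding to the phytanoyl-CoA hydroxylase PHYH, rose from 0.908, 0.346 and 0.212 CPM to 3.89, 3.24 and 3.08 (2.77 ± 0.42, adjusted p = 0.000343). Car12, a carbonic anhydrase of the cell surface, rose from 0.621, 0.792 and 1.22 CPM to 2.46, 2.45 and 2.20 (1.44 ± 0.23, adjusted p = 0.000782). In all 3 genes the groups stood apart.

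**Figure D4:**
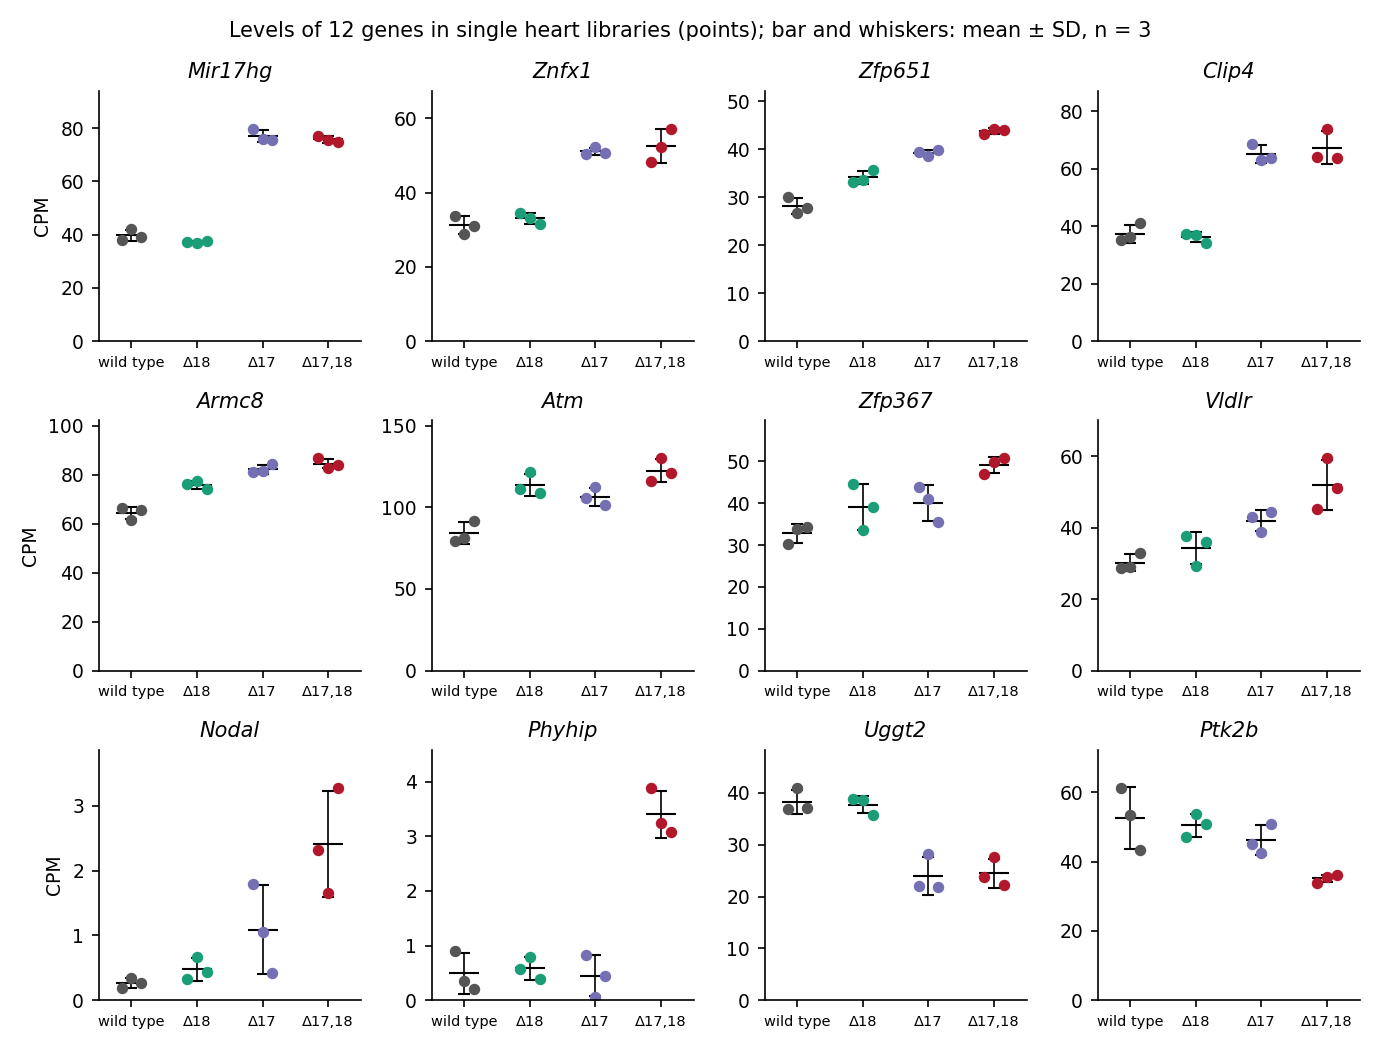
CPM of 12 genes (vertical axes, from 0) in single heart libraries of wild type, Δ18, Δ17 and Δ17,18 (horizontal axes); points are libraries, bars and whiskers the mean ± SD of 3. Mir17hg is at 74.6 to 77.1 CPM in Δ17,18 and 75.6 to 79.7 in Δ17, and Phyhip is at 3.08 to 3.89 CPM in Δ17,18, above every library of the other 3 genotypes shown.

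Falls were fewer and smaller. Uggt2, an enzyme of glycoprotein quality control in the endoplasmic reticulum, was at 36.9, 41.0 and 37.0 CPM in wild-type and 23.8, 27.6 and 22.1 in Δ17,18 hearts. The highest mutant library lay well below the lowest wild-type one, and the log2 level fell by 0.65 ± 0.09 (adjusted p = 0.000136). Ptk2b, the calcium-sensitive kinase PYK2, was at 61.3, 53.3 and 43.5 CPM in wild type and 33.9, 35.5 and 36.0 in the mutant (−0.59 ± 0.08, adjusted p = 0.000167). Its wild-type libraries spread widely and its mutant ones little. Esd, esterase D, was at 50.4, 47.0 and 49.3 CPM and at 38.1, 24.9 and 35.3 (−0.57 ± 0.10, adjusted p = 0.00294), with replicate 2 the lowest. These were the 3 of the 15 largest falls that were called in all 6 fits with a library left out, and 5 of the 15 were called without Δ17,18 replicate 2.

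The others among these 15 moved by −0.28 to −0.70. Scn4b, the β4 subunit of sodium channels, went from 20.0, 19.1 and 19.3 CPM to 13.5, 12.8 and 9.64, so the groups did not overlap. The change was −0.70 ± 0.16 with an adjusted p of 0.0375, and the call held in only 1 of the 6 fits with a library left out, where Δ17,18 replicate 1 was omitted (0.0285; 0.0978 without replicate 2, and up to 0.155). Ccne1, cyclin E1 of the entry into S phase, went from 82.3, 68.8 and 71.1 CPM to 61.0, 56.0 and 51.4 (−0.40 ± 0.08, adjusted p = 0.0134). Every mutant library was lower, and the call was lost without Δ17,18 replicate 2 (0.0622) or 3, or wild-type replicate 1 (up to 0.111). Pgam2, the muscle phosphoglycerate mutase of glycolysis, went from 197, 180 and 171 CPM to 148, 145 and 145 (−0.32, adjusted p = 0.0137, and 0.0639 without replicate 2). Mttp, which loads lipid onto lipoproteins (−0.42), Dusp9, a phosphatase of MAP kinases (−0.39), Fxyd6, a regulator of the sodium pump (−0.35), Exosc9, a subunit of the RNA exosome (−0.29), and Arhgdib, an inhibitor of small GTPases (−0.29), fell as well. Gpr180 (−0.41), Tmem150a (−0.49), Agtrap (−0.28) and the gene ENSMUSG00000087471 (−0.66) complete the set.

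Lists of genes for the heart and for the known targets of the cluster were then read in the same fit. Of 35 tested genes reported elsewhere as targets, E2f1 and Zbtb4 rose and 0 fell, and the median log2 change was 0.13, against 0.00 over all genes. Of the 35, 12 had an unadjusted p under 0.05 in edgeR's test, against 2196 of all 16750 genes tested. E2f1, a transcription factor that drives S phase, went from 33.9, 32.9 and 33.8 CPM to 43.9, 44.6 and 45.4. Both groups were tight and far apart (0.41 ± 0.06, adjusted p = 0.000102). Other well-known targets did not pass. Bcl2l11, the death-promoting BIM, changed by −0.09 ± 0.10 (adjusted p = 0.751). Cdkn1a, the inhibitor p21, changed by 0.10 ± 0.25 (0.905). Mylip, a ubiquitin ligase for the LDL receptor, changed by 0.37 ± 0.12 (0.153), and Pmepa1, an inhibitor of TGF-β signalling, by 0.51 ± 0.18 (0.181).

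The shares called over all genes (0.949% higher, 0.167% lower) are the background for the counts in the lists of heart muscle, and 0 calls in a list of this size is near that share. For members at an unadjusted p under 0.05, here and in the lists below, the background is 2196 of all 16750 genes tested. Among 27 sarcomere genes 0 passed edgeR's test (5 at an unadjusted p under 0.05), and the median was −0.06. Their summed level was 56491 to 63150 CPM in wild-type hearts and 56933, 124969 and 57388 in Δ17,18 replicates 1, 2 and 3, the middle value being raised by Ttn. Ttn itself had a log2 change of 2.02 ± 0.64 (adjusted p = 0.162), and −0.04 (0.978) without replicate 2. Tnnt2, cardiac troponin T, was at −0.17 (adjusted p = 0.129). Among 24 genes of ion channels and conduction, Chrm2 and Cacna1d, a pacemaker calcium channel (0.34, adjusted p = 0.0392), rose and Scn4b fell. These 3 of 24 lie above the 1.12% of all genes, and none of the 3 was called without Δ17,18 replicate 2. Of 25 cardiac transcription factors 0 passed (6 at an unadjusted p under 0.05, median −0.02), and of 20 genes of trabeculation 0 passed (3, median 0.03).

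Second heart field genes, which mark the progenitors that add to the outflow and inflow poles, had a median of 0.27 over 18 genes with 0 past the threshold (4 at an unadjusted p under 0.05), and 0.13 without replicate 2. Their summed level was 277 to 304 CPM in wild-type and 323 to 342 in Δ17,18 hearts, so the sums did not overlap. This was not particular to the list. Sums also stood apart in trabeculation (5015 to 5162 and 5311 to 6386 CPM), the BCL2 family (595 to 608 and 609 to 633) and some other lists. In further lists they overlapped. Sema3c, a guidance cue of the outflow tract, was at 0.49 (adjusted p = 0.0968). The lists of other cells were mixed. For 7 genes of the visceral endoderm the median was −0.14 (−0.46 without replicate 2) and for 13 neural genes 0.09 (−0.07). For 11 epicardial genes the median was 0.45 (0.28 without replicate 2), with overlapping sums of 121 to 147 and 135 to 174 CPM. For 14 tail bud genes it was 0.92 (0.92 without replicate 2), with sums of 13.0 to 27.5 and 25.2 to 36.1 CPM, and for 24 Hox genes 0.83 (0.87), with sums of 13.0 to 28.9 and 29.1 to 37.9 CPM. In none of these 5 lists did a member pass edgeR's test, and 0, 1, 3, 5 and 2 members had an unadjusted p under 0.05. T, the mesoderm factor brachyury of the tail bud, lay at 1.09 to 4.43 CPM in the 6 hearts. The part of such cells in the results was not tested.

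The blood and vessel lists had 0 calls too, with 0, 3 and 1 members at an unadjusted p under 0.05 in the order given. The 15 erythroid genes had a median of 0.76 (1.10 without replicate 2), with sums of 1370 to 3383 CPM in wild-type and 1174 to 7197 in Δ17,18 hearts, which overlap. The 24 endothelial genes had a median of −0.07 (0.04 without replicate 2) and the 20 genes of the cushions and their matrix one of 0.03.

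The signalling lists are read against the 1.12% of all genes called. The 39 genes of E2F and the cell cycle had 2 calls, E2f1 up and Ccne1 down (median 0.04). The 26 MAP kinase genes had 1, Map3k2, an upstream kinase of that cascade (0.36, adjusted p = 0.00485). The 27 genes of cholesterol and its receptors had 1, Vldlr (median 0.03). Among 43 genes of TGF-β and BMP signalling 0 passed, with a median of 0.04. An unadjusted p under 0.05 was found in 13 of the 43, and in 2196 of all 16750 genes tested. Tgfbr2, the type II receptor, missed the threshold at 0.34 (adjusted p = 0.0725) and was called without replicate 2 (0.0328). Lists of the BCL2 family, p53 targets (median −0.03), hypoxia, immediate early genes, retinoic acid (0.13) and RNA silencing (0.02) held no call. In all, 24 of the 30 lists held none by edgeR's test, and 18 held none by DESeq2, over 516 distinct genes tested.

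Single deletions were set beside the double one, and since they share the wild-type libraries only the values of each are given. Against those libraries, Δ17 hearts had 0.555% of genes called (0.507% higher, 0.0478% lower) and Δ18 hearts 0.0418%, all higher. Genes with a miR-17 8mer had a median log2 change of 0.11 in Δ17, 0.01 in Δ18 and 0.12 in Δ17,18 hearts. Genes with a miR-18 8mer had 0.07, 0.05 and 0.08, and the 180 of them with no miR-17 match had 0.04, 0.04 and 0.06. For the 159 genes raised in Δ17,18 the medians were 0.31 in Δ17 and 0.09 in Δ18, and for the 28 lowered −0.13 and −0.07, where the choice of the genes by their Δ17,18 values favours Δ17,18.

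Named genes fell into different patterns. Znfx1 changed by 0.71 in Δ17 and 0.08 in Δ18, Clip4 by 0.80 and −0.05, and Uggt2 by −0.68 and −0.02, so each had a value in Δ17 close to that in Δ17,18. Zfp651 changed by 0.48 in Δ17 (38.5 to 39.8 CPM) and 0.28 in Δ18 (33.2 to 35.7 CPM, adjusted p = 0.489), and was highest in Δ17,18. Zfp367 changed by 0.29 (adjusted p = 0.113) and 0.26 (0.999) in the single deletions and by 0.59 in Δ17,18. Atm changed by 0.34 in Δ17 and 0.44 in Δ18, both past the threshold of edgeR's test (adjusted p = 0.00536 and 0.00102). Armc8, whose UTR holds no miR-18 match, was called in both as well (0.35 and 0.24, adjusted p = 5.41e-05 and 0.0442). Ptk2b changed by −0.19 and −0.06, Phyhip by −0.06 and 0.25, against −0.59 and 2.77 in Δ17,18.

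Adding the miR-18a deletion to that of miR-17 and miR-20a changed few genes. Directly compared, Δ17,18 and Δ17 hearts differed in 3 of 16750 genes (0.0179%) by edgeR's test, with 1177 at an unadjusted p under 0.05 and 22 called by DESeq2. Phyhip was the one higher in Δ17,18 (0.00597%; 2.82 ± 0.42, adjusted p = 0.0021). The lower ones (0.0119%) were Grhl1 and Eif3s6-ps2. Grhl1, a transcription factor of epithelia, differed by −0.42 ± 0.08 (adjusted p = 0.0452, and 0.0657 without replicate 2). Eif3s6-ps2, a pseudogene whose reads cannot be told from those of its parent gene with certainty, differed by −0.76 ± 0.11 (adjusted p = 0.0021). Its mean was 7.55 CPM in wild-type, 7.48 in Δ17,18 and 12.6 in Δ17 hearts, so the Δ17 libraries were the ones apart.

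Adding the miR-17 and miR-20a deletion to that of miR-18a changed more. Between Δ17,18 and Δ18 hearts 87 genes (0.519%) differed, 77 higher (0.46%) and 10 lower (0.0597%) in Δ17,18. Without Δ17,18 replicate 2 there were 59, and leaving out any 1 library gave 24 (without Δ18 replicate 2) to 90. Mir17hg (1.03), Clip4 (0.89), Znfx1 (0.67) and Tgoln1, a protein of the trans-Golgi network (0.46), were higher. Uggt2 (−0.63, adjusted p = 0.000412) and Ptk2b (−0.52, 0.00124) were lower, as were Tspan18, a tetraspanin (−0.23, 0.0203), and ENSMUSG00000048769 (−0.31, 0.0257). The last of these was not called without Δ17,18 replicate 2 (0.0626), and with other libraries left out the adjusted p reached 0.140 for Tspan18 and 0.166 for ENSMUSG00000048769.

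Departure from additivity asks whether the log2 change of Δ17,18 differs from the sum of the single changes. By edgeR's test 0 of 16750 genes (0%) departed at the threshold, with 715 at an unadjusted p under 0.05, a lowest adjusted p of 0.232 and 0 called by DESeq2. The 2 genes of smallest p were Eif3s6-ps2 (−0.84) and Kpna6, a nuclear import adaptor (−0.29 ± 0.06). Phyhip had a departure of 2.57 ± 0.65 (adjusted p = 0.794).

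The same allele was read in the other dissected pieces, the tail bud and what remained of the embryo, each against its own wild-type libraries. In a fit of these 18 libraries 5.34% of genes were called in the tail bud (3.16% higher, 2.19% lower) and 1.16% in the remainder (1.05% and 0.103%). Of the 159 genes raised in heart, 86 (54.1%) were raised in the tail bud, where they made up 15.5% of the 554 raised genes, and 60 (37.7%) in the remainder, 32.4% of 185. Of the 28 lowered genes 5 (17.9%, and 1.30% of 384) fell in the tail bud and 1 (3.57%, and 5.56% of 18) in the rest. None of the 187 was called the opposite way elsewhere. Of the 87 genes raised in heart without Δ17,18 replicate 2, 62 (71.3%, and 11.2% of 554) were raised in the tail bud, where 1 fell, and 45 (51.7%, and 24.3% of 185) in the remainder. 56 genes were raised in all 3 tissues and 1, Gpr180, was lowered in all 3. Genes with a miR-17 8mer had medians of 0.18 in the tail bud and 0.13 in the remainder, and genes with a miR-18 8mer 0.12 and 0.06, against 0.12 and 0.08 in heart.

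**Figure D5:**
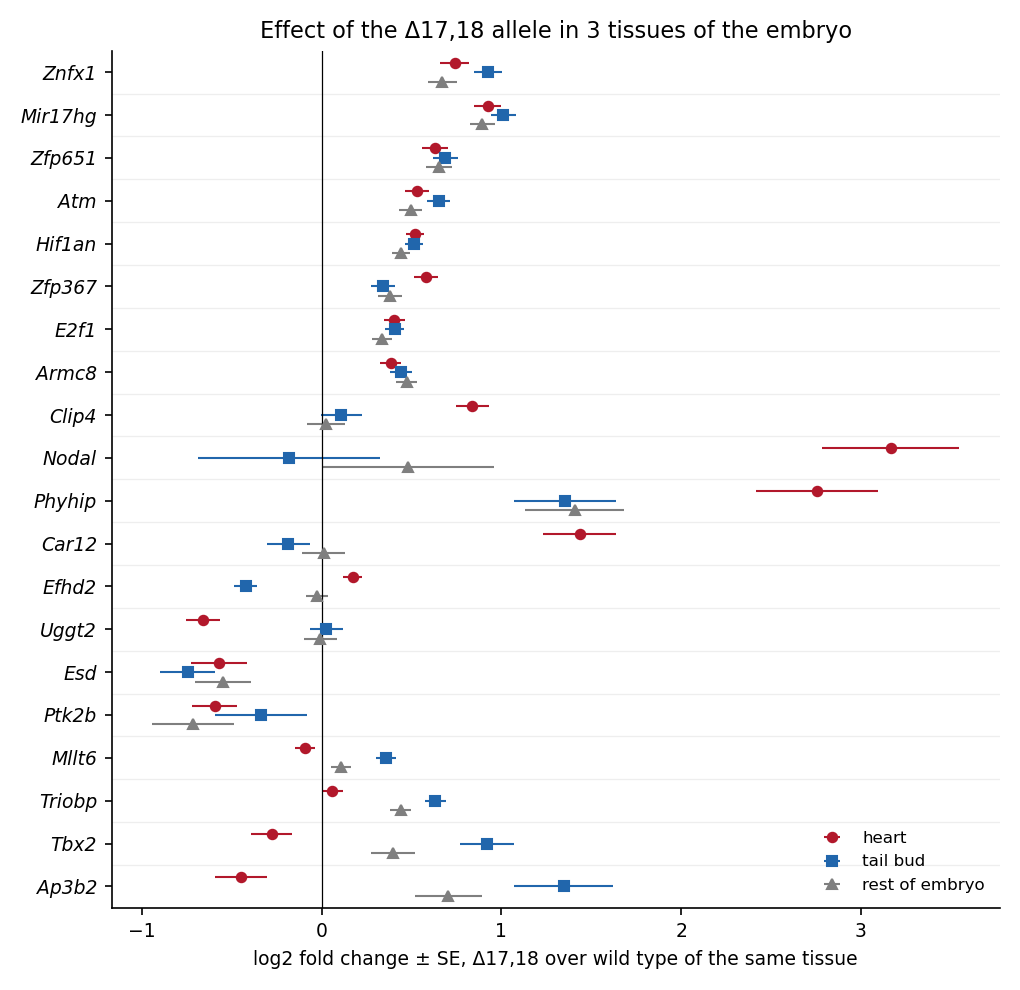
log2 fold change ± SE, Δ17,18 over wild type of the same tissue (horizontal axis), for 20 genes (vertical axis) in heart (red circles), tail bud (blue squares) and rest of embryo (grey triangles). Znfx1, Mir17hg and Zfp651 lie close together in the 3 tissues, and Tbx2 and Ap3b2 lie below 0 in heart and above it in the tail bud.

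Whether the effect in heart differed from that in the tail bud was tested gene by gene, and 6 of the genes tested (0.0342%) passed, 2 with the heart value higher (0.0114%) and 4 with it lower (0.0228%), while 1570 had an unadjusted p under 0.05 and DESeq2 called 66. Without Δ17,18 heart replicate 2 all 6 stayed past the threshold among 14 called. Car12, raised in heart, was at 9.23, 9.30 and 9.70 CPM in wild-type and 8.87, 8.37 and 7.56 in mutant tail buds. There the change did not pass (−0.19, adjusted p = 0.374), and the difference of the log2 changes was 1.62 ± 0.24 (adjusted p = 0.00525). Efhd2, a calcium-binding EF-hand protein, was at 200, 213 and 202 CPM in wild-type and 238, 214 and 240 in mutant hearts, and at 28.1, 27.8 and 31.2 against 20.8, 22.2 and 21.7 in tail buds (difference 0.60 ± 0.08, adjusted p = 0.00525). It fell in the tail bud (−0.42, adjusted p = 0.000489), and the heart value of 0.17 did not pass (0.165).

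For the other 4 the heart value was the lower. Tbx2, a repressor that keeps the atrioventricular canal from becoming chamber muscle, was at 58.1, 67.2 and 66.0 CPM in wild-type and 52.3, 54.1 and 51.3 in mutant hearts, and at 3.05, 4.67 and 3.53 against 5.90, 8.57 and 6.85 in tail buds. The groups did not overlap in either tissue. The rise in the tail bud passed the test (0.92, adjusted p = 0.00127) and the heart value did not (−0.28, 0.322), and the difference was −1.20 ± 0.19 (adjusted p = 0.0131). Ap3b2, a subunit of a vesicle adaptor, was at 81.8, 63.9 and 57.0 CPM against 44.6, 42.5 and 61.4 in hearts, which overlap, and at 1.15, 0.856 and 1.07 against 2.28, 2.74 and 2.77 in tail buds, which do not (−1.79 ± 0.31, adjusted p = 0.0486). Triobp, which binds actin (−0.57 ± 0.08, adjusted p = 0.00525), and Mllt6, a chromatin gene (−0.45 ± 0.08, 0.0362), rose in the tail bud, by 0.63 and 0.36, and had changes of 0.06 and −0.10 in heart. The calls of Tbx2, Mllt6 and Ap3b2 were lost in some fits with a library left out, at adjusted p of up to 0.0819, 0.124 and 0.209, and Ap3b2 also lost its call with a block on the replicate number (0.0860).

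Against the rest of the embryo 0 genes (0%) differed by edgeR's test, with 1060 at an unadjusted p under 0.05, a lowest adjusted p of 0.0883 and 19 called by DESeq2. Without Δ17,18 heart replicate 2 there were 2. The genes of smallest p with all libraries were Car12 (1.42 ± 0.23, adjusted p = 0.0883) and Clip4 (0.82 ± 0.14, 0.0886). Clip4 had log2 changes of 0.11 in the tail bud and 0.02 in the remainder, and its difference between heart and tail bud was 0.73 (adjusted p = 0.0924). Nodal changed by −0.18 and 0.48 and Uggt2 by 0.03 and −0.01 in those tissues, while Phyhip was raised in both (1.36 and 1.41).

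Calls were frequent on chromosome 14, which carries the cluster. Of its 546 tested genes 15 (2.75%, against 1.12% of all genes, a difference that was not tested) were called, 10 raised and 5 lowered, the latter among 28 lowered genes in all. The lowered ones were Ptk2b, Trim35 (−0.15), Esd, Gpr180 and Uggt2, and Mir17hg, Phyhip, Dzip1, Cacna1d, Tnfrsf10b, Nr1d2, Fzd3, Ddhd1, Ccdc122 and 4930452B06Rik were raised. Gpr180, Dzip1 and Uggt2 are the 3rd, 6th and 8th tested genes after Mir17hg along the chromosome. The other called genes are spread further off. Counted in tested genes from Mir17hg, they lie from −46 (Ccdc122), −63 (Esd) and −85 (Phyhip) to −498 (4930452B06Rik). The direct neighbours of the cluster were not called, with Gpc6, a heparan sulfate proteoglycan of the cell surface, at 0.29 (adjusted p = 0.149). A difference of background sequence near the modified locus and an effect of the missing miRNAs cannot be told apart in these genes.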

How the data were processed

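Total RNA of dissected tissue was sequenced in 50-base single reads, per the labels' protocols. The submitters' processing notes name STAR 2.3.0, SAMtools 0.1.14, featureCounts of Subread 1.4.2 and the mouse build mm9 (NCBIM37). The deposited table holds counts, whole numbers per Ensembl gene with no normalization. The annotation release, strand setting, treatment of reads with several matches and RNA selection are not given in the sources used here. The groups and replicate numbers come from the sample labels. The p-values rest on the spread between libraries within groups, 3 libraries a group. This spread was pooled over all groups of a fit, including genotypes not compared, and moderated across genes.

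The 24 heart libraries were fitted together with edgeR 4.0.16 (limma 3.58.1, R 4.3.3): filterByExpr by group, TMM factors and quasi-likelihood tests with robust dispersions, contrasting the genotypes, with Benjamini-Hochberg adjustment over 16750 genes. The tissue comparisons used 18 libraries of the same genotypes and 17555 genes. The common biological coefficient of variation was 8.87% and 9.07%. Standard errors were taken from the log2 change and its F value. CPM and log2 values were computed here, with a prior count of 2 for log2 CPM per library. DESeq2 1.42.0 was an alternative. The code was tested on simulated data. Python 3.11.15 and pandas 2.3.3 made the lists.

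Genes were named by rule: up to 15 a direction by size of change among called genes whose groups do not overlap and whose mean log2 CPM is 2 or more, the 8 (miR-17) and 4 (miR-18) seed-match genes of smallest p, up to 4 members a list, and Mir17hg, Bcl2l11, Cdkn1a, Mylip, E2f1 and Pmepa1. The comparison and all lists were chosen with earlier results of these data known. Seed matches and transcript lengths came from GENCODE M21 on GRCm38, matched by gene ID, and no coordinate was converted from mm9. Some genes that the rule names are not reported here.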

Additional observations from a re-analysis of the deposited data

Results flagged for a closer look

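In 6 genes the log2 change of the Δ17,18 allele in heart differed from that in the tail bud by a test of that difference itself (edgeR's quasi-likelihood test, Benjamini-Hochberg adjustment over 17555 genes). The heart-minus-tail-bud differences were 1.62 in Car12, 0.60 in Efhd2, −0.45 in Mllt6, −0.57 in Triobp, −1.20 in Tbx2 and −1.79 in Ap3b2. Car12, Efhd2 and Triobp stayed past the threshold with each library of both tissues left out in turn, at adjusted p of up to 0.0414, 0.0300 and 0.0343. Mllt6, Tbx2 and Ap3b2 did not (up to 0.124, 0.0819 and 0.209), and Ap3b2 also missed it with a block on the replicate number (0.0860).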

How the results depend on the processing

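RLE factors (188 calls), only the 6 libraries compared (137 calls, 102 shared) and a minimum mean log2 CPM of 3 (195) left the heart count within 1.5 times of 187. DESeq2 called 332 genes (262 higher, 70 lower; 183 shared) and testing every gene with any count 749 (615 and 134; 176 shared). The same pair of changes gave 22 and 289 genes against Δ17, 149 and 592 against Δ18, 66 and 222 for heart minus tail bud, and 19 and 123 for heart minus rest of embryo. Without the filter 188 genes departed from additivity. The cause was not tested. Leaving out 1 library gave 64 to 339 calls in the main comparison, 2 to 8 against Δ17, 24 to 90 against Δ18, 0 to 1 for additivity, 3 to 18 for heart minus tail bud and 0 to 4 for heart minus rest. A block on the replicate number left 153 calls (147 shared), and 2, 64, 0, 6 and 0 in the other comparisons in the same order. With it Grhl1 lost its call against Δ17 (0.0754) and Ap3b2 its difference between heart and tail bud (0.0860; 5 of the 6 genes shared). The numbers share no stated source, and for that reason the main fit did not take same-numbered libraries as pairs. The deviations of same-numbered libraries correlated at 0.242, 0.0525 and 0.165, all above those of differently numbered ones (−0.205 to 0.0315). Deviations within a group of 3 depend on one another, so these correlations are not separate observations. A shared effect of the replicate number was not tested beyond the block. Signs turned in genes far from the threshold. With a library left out Bcl2l11 ran from −0.19 to 0.026 (highest without wild-type replicate 3), Mcm7 from −0.056 to 0.043 (above 0 without Δ17,18 replicate 2 or wild-type replicate 1 or 3), Eif3s6-ps2 from −0.057 to 0.016 (highest without Δ17,18 replicate 1), Hbb-bt from −0.35 to 1.86 (lowest without Δ17,18 replicate 3), and, each lowest without replicate 2, Elavl3 from −0.11 to 0.58, Spi1 from −0.50 to 1.79 and Ttn from −0.044 to 2.49. Of 126 named genes tested 62 were past the threshold, 60 of these with DESeq2, 54 with the block, 41 without Δ17,18 replicate 2 and 31 in every fit with a library left out. Leaving replicate 2, or each library, out of the list, seed-match and tissue counts was chosen after seeing the data. For genes with 0 counts in a library, 3 counts correspond to 0.145 to 0.192 CPM in these 6.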
